A study of Zea mays with 2 samples.

Results

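Alpha zeins of the 19-kDa class are storage proteins of maize endosperm, and the z1A1 genes examined here form 1 cluster of near-identical copies that encode or resemble them. The members were the 6 gene models listed under the names z1A1_2, z1A1_3, z1A1_5, z1A1_6 (floury4, fl4), z1A1_7 and z1A1_8, of 41406 gene models in the deposited tables. They were chosen by identifier, with earlier results of these data known. All 6 were found in both libraries, and all 6 had an RPKM (reads scaled to gene model length and library size) of at least 1 in at least 1 library. In the RefSeq gene table (assembly Zm-B73-REFERENCE-NAM-5.0) the identifiers matched 7 entries, because z1A1_3 and z1A1_4 carry the same identifier. That row is called z1A1_3/4 below. Whether it holds the reads of 1 or both genes is not known, so its level, rank and share may not be those of a single copy. RefSeq lists z1A1_8 as a transcribed pseudogene and the other 5 members as protein coding.

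RNA was taken from endosperm of Zea mays kernels 15 days after pollination, in the defective kernel mutant dek44 and in wild type. The labels give 1 library per genotype, although the series text speaks of triplicates, and the sources used here do not say whether a library pools several plants. Dek44 is known as a gene for a protein of the mitochondrial ribosome; the allele and the background line are not given in the labels. With 1 column of values per genotype no test is possible, and every difference below describes these 2 libraries. From the RPKM steps, the read totals behind the values were inferred as 22612657 for dek44 and 20861135 for wild type. A factor shared by both totals would not be seen.

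Zeins are the prolamins that starchy endosperm cells make during grain filling. They enter the endoplasmic reticulum with the help of a signal peptide and pack into protein bodies, where gamma and beta zeins form the outer shell and the 19-kDa and 22-kDa alpha zeins fill the core. The fl4 gene got its name from a dominant floury-kernel mutation, in which the signal peptide of a z1A protein is not cleaved. Transcription of zein genes depends on endosperm regulators such as Opaque2 (o2) and the prolamin-box binding factor (PBF).

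All 5 protein-coding z1A1 members were among the abundant transcripts of wild-type endosperm, and each was at least 11-fold lower in the dek44 library. The most abundant row, z1A1_3/4 (GRMZM2G059620), had an RPKM of 1574 in dek44, against 18154 in wild type. The neighbouring copy z1A1_5 (GRMZM2G053120) had 908 in dek44, against 11577 in wild type. They ranked first and second among the 6 members in each library.

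The fl4 gene itself (GRMZM2G353272) had an RPKM of 809 in dek44, against 10694 in wild type. Its neighbour z1A1_7 (GRMZM2G353268) had 688 in dek44 and 10896 in wild type. The order of this pair differed between the libraries, as fl4 ranked number 3 of the members in dek44 and number 4 in wild type. With the same smallest fitted length for both, the ratio of fl4 reads to z1A1_7 reads was 1.18 in dek44 (95% exact interval 1.13 to 1.22) and 0.981 in wild type (0.972 to 0.991). These intervals, like all others here, cover counting error only.

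The other two members were less abundant in both libraries. z1A1_2 (GRMZM2G404459), the first protein-coding copy of the cluster, had an RPKM of 206 in dek44, against 2286 in wild type. The pseudogene z1A1_8 (GRMZM2G018193) had 0.280 in dek44 and 10.6 in wild type, which correspond to 1 and 35 reads as the smallest numbers that fit. Its dek44 value therefore rests on a single read or a small multiple of it. Across the 5 protein-coding members the levels spanned 7.62-fold in dek44 and 7.94-fold in wild type, both between z1A1_2 and z1A1_3/4.

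**Figure D1:**
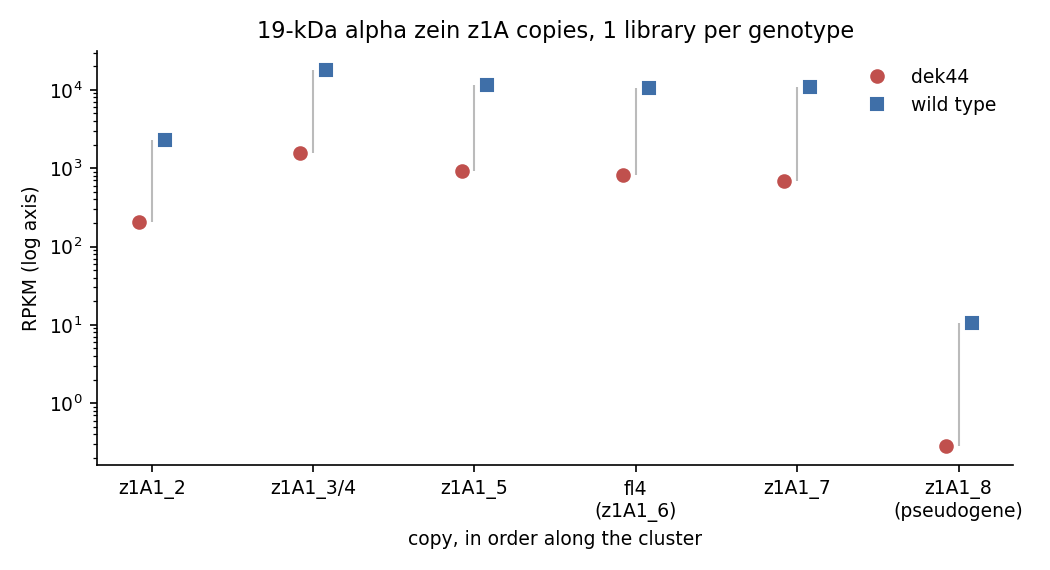
RPKM of the 6 members (log axis) in the dek44 library (circles) and the wild-type library (squares), 1 library each, with copies in their order along the cluster in the RefSeq table. Each grey line joins the values of 1 copy, and every dek44 point lies below its wild-type partner, from 206 against 2286 for z1A1_2 to 0.280 against 10.6 for z1A1_8.

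Set among all 41406 gene models, the protein-coding copies also stood lower in rank. By RPKM, z1A1_3/4 was number 50 in dek44 and number 12 in wild type. For z1A1_5 the ranks were 126 in dek44 and 19 in wild type, for fl4 142 and 23, and for z1A1_7 200 and 22. z1A1_2 was number 967 in dek44 and number 54 in wild type. The 6 members together summed to an RPKM of 4185 in dek44, against 53618 in wild type, 12.8-fold lower in dek44. Their sum made up 0.317% of all RPKM in dek44 and 3.87% in wild type.

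Measured as plain RPKM folds, the protein-coding copies lay close together, between 11.1-fold and 15.8-fold lower in dek44. z1A1_2 was 11.1-fold lower (95% interval 10.7 to 11.5), z1A1_3/4 11.5-fold (11.3 to 11.8) and z1A1_5 12.7-fold (12.4 to 13.1). The fl4 gene was 13.2-fold lower (12.9 to 13.6) and z1A1_7 15.8-fold (15.4 to 16.3). The pseudogene z1A1_8 had a fold of 37.9 with an interval of 6.38 to 1541, which takes in the folds of all the others. In the order in which RefSeq places the copies along chromosome 4, the fold was larger at each step from z1A1_2 to z1A1_8. Of the 15 pairs of members, 8 had separate intervals and 7 had overlapping ones. The overlapping pairs were z1A1_2 with z1A1_3/4, z1A1_5 with fl4, and each of the 5 pairs that include z1A1_8. The 5 protein-coding folds differed by a factor of 1.43 at most, small beside the 12.8-fold difference of the sum.

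The sources used here do not say how reads that match several copies were assigned, and the copies are near-identical. Reads of 1 copy may thus be counted for another, so differences between copies are less certain than the sum, and the counting intervals do not cover this. The smallest gene length that turned both RPKM values into whole reads was 351 bases for 4 members (z1A1_3/4, z1A1_5, fl4 and z1A1_7). It was 802 bases for z1A1_2 and 158 bases for z1A1_8. A whole multiple of each length fits as well. The level of 1 copy against another depends on the length that was used, whereas the fold between the libraries does not. The width of the intervals does depend on it, as a multiple of the length gives more reads and narrower intervals. The counts of separate and overlapping pairs therefore hold for the smallest reads only.

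**Figure D2:**
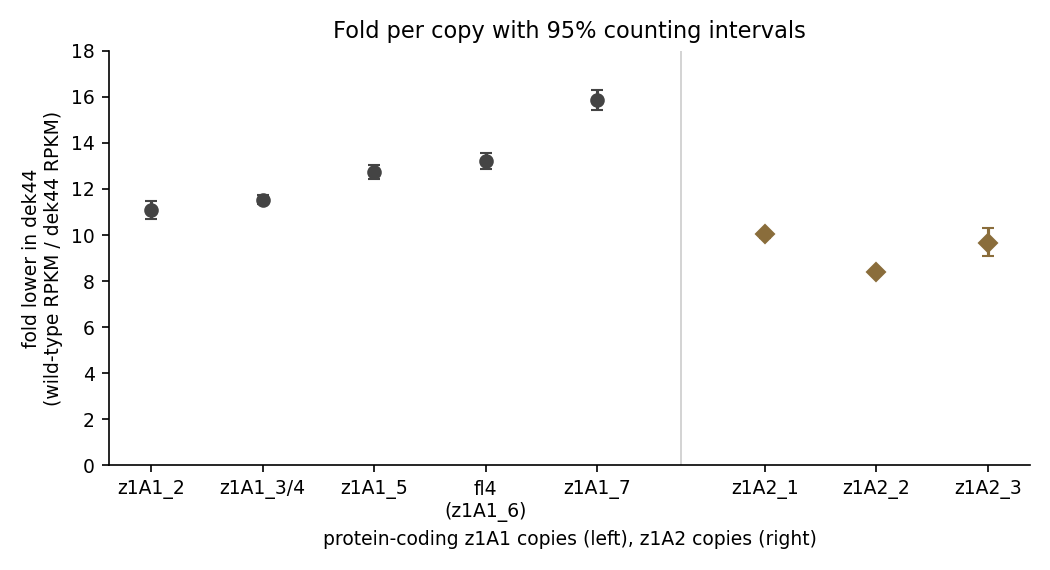
Fold by which each copy was lower in dek44 (wild-type RPKM divided by dek44 RPKM), with 95% exact counting intervals as bars, for the 5 protein-coding z1A1 members (circles, in cluster order) and the 3 z1A2 genes (diamonds). The z1A1 folds run between 11.1 and 15.8, and the z1A2 folds lie between 8.40 and 10.04; some bars are smaller than their symbols.

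The composition of the subfamily differed little between the libraries. z1A1_3/4 made up 37.6% of the summed RPKM of the 6 members in dek44 and 33.9% in wild type. z1A1_5 made up 21.7% in dek44 and 21.6% in wild type, and fl4 19.3% in dek44 and 19.9% in wild type. The share of z1A1_7 was 16.4% in dek44 and 20.3% in wild type, and that of z1A1_2 was 4.93% in dek44 and 4.26% in wild type. The pseudogene held 0.00669% in dek44 and 0.0198% in wild type. The widest differences were thus 3.74 percentage points more for z1A1_3/4 and a difference of -3.89 points for z1A1_7 (dek44 minus wild type).

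**Figure D3:**
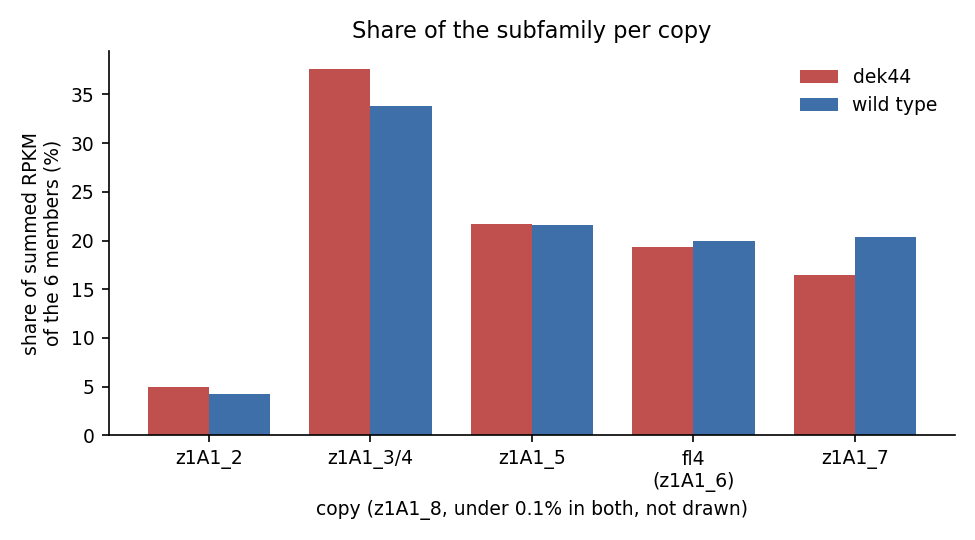
Share of each protein-coding copy in the summed RPKM of the 6 members, in percent, in the dek44 library (left bar of each pair) and the wild-type library (right bar), 1 library each. z1A1_3/4 holds the tallest bars, 37.6% in dek44 and 33.9% in wild type, and z1A1_7 has 16.4% in dek44 and 20.3% in wild type.

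To set the members against all genes, ratios were taken as log2((dek44 RPKM + 1)/(wild-type RPKM + 1)). All 6 members were at least 2-fold lower on this scale, while 3.7% of the 30136 expressed genes (RPKM of at least 1 in at least 1 library) were and 31.6% were at least 2-fold higher. Relative to the median of expressed genes, the members kept that call, and 10.9% of expressed genes were lower and 12.3% higher. The members' log2 ratios lay between -3.98 for z1A1_7 and -3.18 for z1A1_8, with a median of -3.60. The ratio of z1A1_8 depends on the pseudocount: its plain log2 ratio was -5.25, and it was -4.82 with 0.1 and -1.56 with 5 added in place of 1. Expressed genes as a whole had a median log2 ratio of 0.62, and relative to it the members lay between -4.61 and -3.81. The summed members had a log2 ratio of -3.68, and 38 of the 30136 expressed genes (0.126%), fl4 and z1A1_7 among them, lay at or below it.

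**Figure D4:**
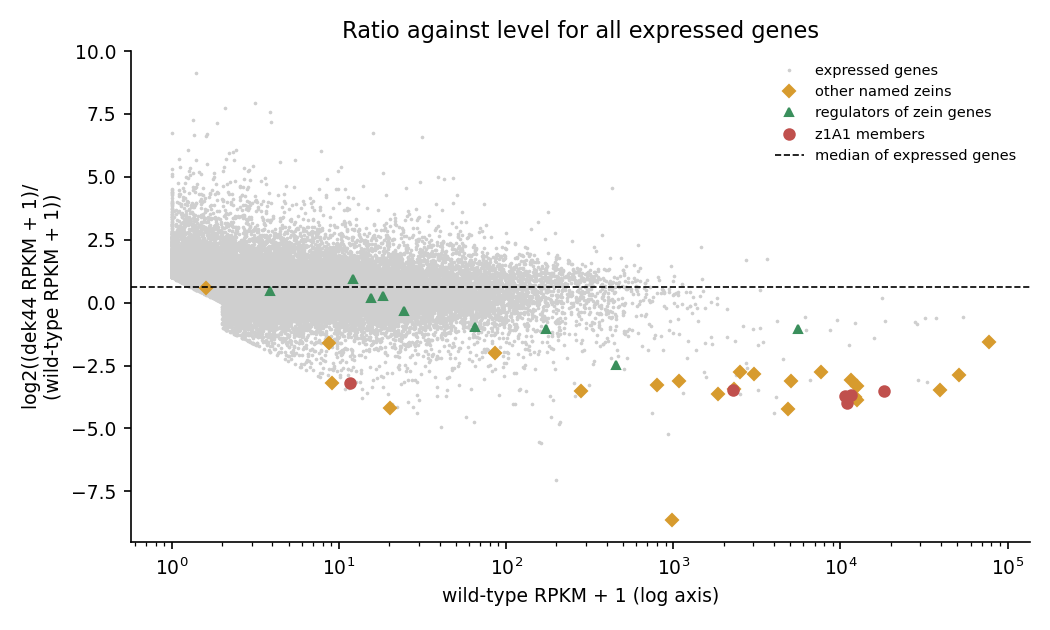
Log2 ratio of dek44 to wild type (vertical axis, RPKM + 1) against wild-type RPKM + 1 (log axis) for 30136 expressed genes. Marked are the 6 z1A1 members, 23 other named zeins and 9 gene models listed as regulators of zein genes. The members lie between -3.98 and -3.18, the dashed line is the median of expressed genes at 0.62, and all but 1 of the other zeins lie below -1.

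The closest relatives in the files are the z1A2 genes, 19-kDa alpha zeins elsewhere on chromosome 4, and all 3 were lower in dek44. z1A2_1 (GRMZM2G008341) stood at an RPKM of 1250 in dek44, against 12544 in wild type, and was 10.04-fold lower (9.89 to 10.2). z1A2_2 (GRMZM2G008913) had 1375 in dek44, against 11546 in wild type, 8.40-fold lower (8.28 to 8.52). z1A2_3 (GRMZM2G026939) had 82.7 in dek44, against 799.7 in wild type, 9.67-fold lower (9.07 to 10.3). The counting intervals of all 3 lie below those of the 5 protein-coding z1A1 members. In dek44 z1A2_1 and z1A2_2 were each more abundant than z1A1_5, and in wild type only z1A2_1 was.

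The z1B genes, another group of 19-kDa alpha zeins, had 3 named models, all of low RPKM and listed by RefSeq as pseudogenes. Past 2-fold, 2 of them were lower and 0 higher. z1B_9 (GRMZM2G125130) had 20.4 in dek44 and 84.3 in wild type, and z1B_7 (GRMZM2G309832) had 1.88 in dek44 and 7.75 in wild type. The 3rd, z1B_8 (GRMZM2G025763), had 1.39 in dek44 and 0.603 in wild type, from 5 and 2 reads as the smallest that fit, so the order is within counting error. No z1D gene could be matched by name to the deposited gene models. The pseudogenes z1A1_1 and z1A1_9 at the ends of the cluster had no matching identifier either, so none of these was analysed.

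The 22-kDa alpha zeins (z1C), which share the protein body core, had 12 named models, and the whole 12 were past 2-fold in the lower direction (median log2 ratio -3.31). The most abundant, z1C1_4 (GRMZM2G044625), had 854 in dek44, against 12595 in wild type, 14.7-fold lower (14.5 to 15.0), within the range of the z1A1 folds. Floury2 (z1C2, GRMZM2G397687) had 1148 in dek44 and 7689 in wild type, and z1C1_19 (GRMZM2G160739) had 572 in dek44 and 5033 in wild type.

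Among gamma, beta and delta zeins, 5 of 5 were at least 2-fold lower (median log2 ratio -3.47). The 27-kDa gamma zein gene gz27, whose protein starts protein body formation, had the smallest fold of the 3 most abundant, with 26132 in dek44 and 77278 in wild type. The beta zein gene zp15 had 6935 in dek44 and 51113 in wild type, and gz16, a gamma zein gene, had 3555 in dek44 and 39385 in wild type. The fold of gz16, 11.1 (10.97 to 11.2), was close to that of z1A1_2.

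Over the 23 other named zeins, 22 (95.7%) were at least 2-fold lower, and their median log2 ratio was -3.19. By plain fold, 14 of the 23 had a smaller fold than every protein-coding z1A1 member, 5 lay within the members' range and 3 had a larger fold. The last, z1C1_13, was listed at 0 in dek44. The members' sum made up 8.61% of the summed RPKM of all 29 named zeins in dek44 and 17.8% in wild type. Without the members, the summed zeins were 5.57-fold lower in dek44. Both comparisons depend on gz27, which held 26132 of the other zeins' summed 44412 in dek44 and 77278 of their 247279 in wild type. That gene alone was 2.96-fold lower. Zein gene models without a matching name, including copies named after sequenced clones, are in none of these counts.

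Among 9 gene models named as regulators of zein genes, 3 passed 2-fold in the lower direction and 0 in the higher one (median log2 ratio -0.32). Relative to the median of all genes, those counts were 4 and 0. The shares over all expressed genes were 3.7% lower and 31.6% higher, or 10.9% and 12.3% relative to the median. Floury3 (fl3, GRMZM2G006585), a PLATZ protein of the endosperm, was the most abundant of the list. It had 2696 in dek44, against 5545 in wild type, 2.06-fold lower (2.01 to 2.10). Whether fl3 acts on zein genes was not examined. o2 (GRMZM2G015534), the bZIP activator, had 80.7 in dek44, against 456 in wild type, 5.66-fold lower (5.42 to 5.91). nkd1 (GRMZM2G129261), a zinc-finger regulator of aleurone and storage genes, had 81.3 in dek44, against 171 in wild type, 2.11-fold lower (2.02 to 2.20). The other 6 models, among them the o2 relatives ohp1 and ohp2 and a pair of identifiers named pbf1, lay between log2 ratios of -0.98 and 0.94. The pbf1 pair, named for PBF, went in opposite directions as deposited. Relative to the median of all genes, both were lower, at log2 ratios of -1.61 (GRMZM2G146283) and -0.36 (GRMZM2G146267). Both identifiers match the same RefSeq entries, so the pair may not be separate genes. GRMZM2G146283 (RPKM 32.0 for dek44, 64.3 for wild type) was lower by a plain factor of 2.01 (1.83 to 2.20). Its log2 ratio, with the pseudocount, was -0.98, just short of the threshold. GRMZM2G146267 (RPKM 21.1 for dek44, 17.4 for wild type) was higher by a plain factor of 1.21 (1.13 to 1.30). Every gene model of this list thus had a smaller fold than each z1A1 member.

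Of 8 gene models named for zein sorting and protein bodies, 2 passed 2-fold in the lower direction and 2 in the higher one (median log2 ratio 0.45). Relative to the median of all genes, those counts were 3 and 1. Of all expressed genes, 3.7% were lower and 31.6% higher, or 10.9% and 12.3% relative to the median. The calreticulin gene crt2 (GRMZM2G358059), a chaperone of the endoplasmic reticulum, had 447 in dek44 and 72.7 in wild type. The Hsp70-type chaperone genes bip1 (GRMZM2G114793) and bip2 (GRMZM2G415007) had 205 in dek44 and 138 in wild type, and 89.98 in dek44 and 29.0 in wild type. The 2 lower ones, named after their values were seen, were Floury1 (GRMZM2G094532), a protein body membrane protein, with 20.7 in dek44 and 94.5 in wild type, and Opaque10 (GRMZM2G346263), which helps to arrange zeins inside the body, with 15.1 in dek44 and 70.8 in wild type. The list also holds GRMZM2G098813, which shares the name fl1 but belongs to the LEAFY-like genes.

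Genes beside the cluster did not share the lower values. On one side, the nearest entries with an identifier in the files were GRMZM5G836322, a long non-coding RNA with 7.79 in dek44 and 7.49 in wild type, and GRMZM2G054415, with 1.51 in dek44 and listed at 0 in wild type. On the other side, GRMZM2G169160 had 40.4 in dek44 and 43.0 in wild type, and GRMZM2G011364 had 27.4 in dek44 and 18.8 in wild type. All 4 had log2 ratios between -0.09 and 1.33. As only 3.7% of all expressed genes were at least 2-fold lower, these values do not show where the lower values end. The order of genes comes from the RefSeq assembly, and the files use B73 RefGen_v3, so no coordinates are given.

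Outside the zeins, the genes with a ratio nearest to that of the summed members were sought among 913 genes with a RefSeq entry and a wild-type RPKM of at least 100. Likeness was the absolute difference in log2 ratio over the 2 libraries. The nearest was P4H4 (GRMZM5G843555), named for a prolyl 4-hydroxylase, with 12.2 in dek44 and 191 in wild type and a difference of 0.18 from the members' -3.68. Next came waxy1 (wx1, GRMZM2G024993), the granule-bound starch synthase of endosperm, with 288 in dek44, 3191 in wild type and a difference of 0.21. The other 3, GRMZM2G037284, GRMZM2G147399 and GRMZM2G050384, have no gene name and differed by 0.33 to 0.46.

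Markers of cell types differed between the libraries as well, and in bulk tissue fewer cells of a type and less RNA per cell cannot be told apart. For the counts below, 3.7% of all expressed genes were at least 2-fold lower and 31.6% higher. Relative to the median of all genes, the shares were 10.9% and 12.3%. Of 6 gene models named as starchy endosperm markers, 5 were at least 2-fold lower, between 2.37-fold for ae1 and 20.8-fold for bt2. The 6th, GRMZM2G039942, shares the name ae1 and was higher, with 29.5 in dek44 and 1.95 in wild type. It matches a different RefSeq entry from GRMZM2G032628, the ae1 model that was lower, so it may not be a starchy endosperm marker. Its wild-type value corresponds to 5 reads as the smallest number that fits. The summed level of the 6 was 2266 in dek44 and 17550 in wild type. All 7 expressed markers of the basal endosperm transfer layer, of 8 in the files, were at least 2-fold higher, and 6 were relative to the median of all genes. The summed RPKM of the 8 was 2957 in dek44 and 377 in wild type, with betl1 near 0 in both (0.694 in dek44 and 0.564 in wild type). Both markers of the embryo-surrounding region were higher, and they summed to 118 in dek44, against 8.27 in wild type. Of 3 expressed aleurone markers, 0 were past 2-fold in either direction, and the sum of 4 was 394 in dek44 and 307 in wild type. The 4th, c1, did not reach an RPKM of 1. It had 0.759 in dek44, from 7 reads as the smallest that fit, and was listed at 0 in wild type. Of 5 embryo markers, 2 (against 31.6% of expressed genes) passed 2-fold in the higher direction and 0 in the lower one, or 1 and 1 relative to the median of all genes. The only one still higher relative to the median was GRMZM2G067402, with 28.1 in dek44 and 0.0832 in wild type. It shares the name glb1 with GRMZM2G067919 (40.4 in dek44, 23.9 in wild type), which matches a different RefSeq entry. The name alone therefore does not show that GRMZM2G067402 is an embryo marker. The 5 summed to 508 in dek44, against 405 in wild type. The oleosin gene ole1 (GRMZM2G337229), with 372 in dek44 and 289 in wild type, stands in both the aleurone and the embryo list and makes up most of both sums. The part of these shifts in the z1A1 values was not tested.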

How the data were processed

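Endosperm mRNA of dek44 and wild type, 1 library each, had been sequenced, and the authors deposited RPKM values for 41406 gene models. The submitters' processing notes name Bowtie 0.12.2 and the build B73 RefGen_v3. How reads were counted, whether strand was used, which gene lengths applied and how multiply matching reads were treated is not given in the sources.

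Library totals were recovered from the 1480 low values used per library, as the largest total that gave whole gene lengths for most genes read once. With 1 to 5 reads allowed, 99.4% (dek44) and 99.5% (wild type) gave whole lengths. The steps were tested on simulated data. A factor shared by both totals cannot be seen. Reads per gene are the smallest that fit a length of 100 bases or more in both libraries, within 0.001 reads. Fold intervals are 95% exact conditional binomial (Clopper-Pearson) intervals. Ratios used a pseudocount of 1 RPKM, a filter of RPKM 1 and a 2-fold threshold. Gene names came from RefSeq synonyms, which matched 16689 identifiers (40.3%). The 6 members and the gene lists were chosen with earlier results of these data known. All members were named; in the lists of zeins, regulators and protein body genes, the 3 most abundant genes were. Python 3.11.15, numpy 2.4.6, pandas 2.3.3 and scipy 1.17.1 were used. Member sequences were not used here.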

Additional observations from a re-analysis of the deposited data

How the results depend on the processing

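With 1 library per genotype, no value has a replicate check, and counting error is the only error known. Every member kept its sign and stayed past 2-fold under each of the 4 alternatives run on it. Relative to the median of all genes, the log2 ratios were -4.09 (z1A1_2), -4.15 (z1A1_3/4), -4.29 (z1A1_5), -4.35 (fl4), -4.61 (z1A1_7) and -4.30 (sum). With RPKM rescaled to the sum outside named zeins they were, in that order, -3.76, -3.83, -3.97, -4.02, -4.28 and -3.98. Both move every gene by 1 factor. The pseudogene z1A1_8, with a wide counting interval, had -4.82 with a pseudocount of 0.1 and -1.56 with 5, against -3.18 as reported. The sum had -3.76 without z1A1_3/4 and -3.61 without z1A1_7.

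As shares of the smallest reads, which depend on the fitted lengths, dek44 had 10.6% (z1A1_2), 35.4% (z1A1_3/4), 20.4% (z1A1_5), 18.2% (fl4), 15.5% (z1A1_7) and 0.00283% (z1A1_8). Wild type had 9.24%, 32.1%, 20.5%, 18.9%, 19.3% and 0.00845% in the same order. As shares without z1A1_3/4, dek44 had 7.90% (z1A1_2), 34.8% (z1A1_5), 30.98% (fl4) and 26.3% (z1A1_7). Wild type had 6.45%, 32.6%, 30.2% and 30.7% in that order, and 0.0299% for z1A1_8.

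Of all genes, 1116 were lower and 9529 higher as reported. The counts were 543 and 4192 with a pseudocount of 5, 3284 and 3703 with the median set to 0, and 1762 and 7304 with the sum outside named zeins. The share of higher among calls was 89.5% as reported and 53.0% with the median set to 0.

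No paired analysis was possible because there is 1 library a genotype.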
